A study of Homo sapiens with 12 samples.

Results

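The miR-106a-363 cluster is a group of microRNA (miRNA) hairpins on the X chromosome, and 7 of its mature miRNAs were followed here in extracellular vesicles, the membrane-bound particles that cells shed into their medium. The 7 were taken by name from a count table of 1636 mature miRNAs: hsa-miR-106a-5p, hsa-miR-18b-5p, hsa-miR-20b-5p, hsa-miR-20b-3p, hsa-miR-92a-2-5p, hsa-miR-363-5p and hsa-miR-363-3p (the human prefix hsa is left off below). They were chosen because earlier work on these counts had shown them to differ between lines, so their levels are described without a test. Vesicles came from 6 cell lines (Hutu80, Car-1, MDST8, HT55, SW1116, RCM-1), each sequenced in 2 libraries, which makes 12. The labels class every line as CRC (colorectal cancer), name no genotype or treatment, and give all lines the same serum-containing DMEM/F12 medium. Hutu80 is known as a line from a tumour of the duodenum. The series speaks of consensus molecular subtypes CMS2 and CMS4, but no label used here ties a line to a subtype, so lines were compared with each other. Nothing in the labels tells if replicate libraries were made from different cultures, so spreads and p-values cover these libraries only and may be technical.

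Hutu80 replicate 1 was the shallowest library, with 71831 counts, and SW1116 replicate 1 the deepest, with 622800. Levels are given as scaled CPM, the CPM of a library after trimmed-mean (TMM) scaling of its total. On that scale 1 count was worth 2.23 in the deepest library and 10.9 in the shallowest. Of the 1636 miRNAs, 318 passed the filter on low counts, among them all 7 cluster miRNAs. The 2 Car-1 libraries stood apart from each other for several of the 7 and are given separately throughout. Each library is a bulk sample of vesicles, so fewer vesicles that carry a miRNA and fewer copies per vesicle cannot be told apart.

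A miRNA hairpin is cut into a pair of short strands, one from each arm (5p and 3p), and the strand loaded into an Argonaute protein lowers the output of messenger RNAs that pair with its seed, bases 2 to 8. The miR-106a-363 cluster is a copy of the miR-17-92 cluster, which lies on chromosome 13 and is a well-known oncogenic miRNA locus, and another copy, miR-106b-25, lies on chromosome 7 within MCM7. Members with the miR-17 seed are known to repress the cell-cycle inhibitor CDKN1A. Members with the miR-92 seed are known to repress the pro-apoptotic gene BCL2L11.

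The 6 hairpins of the cluster spanned 901 bases of chromosome X (134169378 to 134170278, GRCh38, minus strand) in the GENCODE 29 annotation. In the direction of transcription they were MIR106A (134170198 to 134170278), MIR18B (134170041 to 134170111), MIR20B (134169809 to 134169877), MIR19B2 (134169671 to 134169766), MIR92A2 (134169538 to 134169612) and MIR363 (134169378 to 134169452). All 6 lay in an exon of the non-coding processed transcript AC002407.1 (134168911 to 134174089). The nearest hairpin of the neighbouring group on the same strand, MIR450B, was 370 kb away.

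RefSeq (GRCh38.p14) held the mature sequence of 7 of the 7 cluster miRNAs, all inside the span above. They are shown because their seeds sort them into target families. Each is written 5′ to 3′ with the seed in capitals.
miR-106a-5p: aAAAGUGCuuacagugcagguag
miR-20b-5p: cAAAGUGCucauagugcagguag
miR-18b-5p: uAAGGUGCaucuagugcaguuag
miR-363-3p: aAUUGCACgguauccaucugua
miR-20b-3p: aCUGUAGUaugggcacuuccag
miR-363-5p: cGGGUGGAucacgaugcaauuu
miR-92a-2-5p: gGGUGGGGauuuguugcauuac

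miR-106a-5p and miR-20b-5p shared the seed AAAGUGC, and in the count table so did miR-17-5p, miR-20a-5p, miR-106b-5p and miR-93-5p. miR-363-3p shared the seed AUUGCAC with miR-92a-3p, miR-25-3p, miR-92b-3p and miR-32-5p. miR-18b-5p shared its seed with miR-18a-5p alone. miR-20b-3p, miR-363-5p and miR-92a-2-5p had no seed mate in the table. The near copies from chromosome 13 are shown next, because reads from them could be counted for a cluster miRNA or the reverse. miR-92a-3p, which hairpins on both chromosomes give, is shown as the abundant seed mate of miR-363-3p.
miR-17-5p: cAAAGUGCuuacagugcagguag
miR-20a-5p: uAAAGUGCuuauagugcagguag
miR-18a-5p: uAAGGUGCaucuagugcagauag
miR-92a-3p: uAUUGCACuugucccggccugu

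With positions counted from 1 at the 5′ end and the cluster miRNA's base first, miR-106a-5p differed from miR-17-5p at 1 of 23 bases (A1C). miR-18b-5p differed from miR-18a-5p at 1 of 23 bases (U20A). miR-20b-5p differed from miR-20a-5p at 2 of 23 bases (C1U and C10U). How the authors' counting assigned reads that fit both copies is not given in the sources used here, so the split within these 3 pairs is uncertain. miR-363-3p differed from miR-92a-3p at 12 of 22 bases, all outside the seed.

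The mature miR-92a-3p can come from MIR92A2 or from MIR92A1 on chromosome 13, and miR-19b-3p likewise from MIR19B2 or MIR19B1, so neither was counted with the cluster. The 5p strands of these hairpins differ in sequence between the chromosomes. The hairpins of miR-92a-2 and miR-363 are printed with both mature arms in capitals, since their 5p strands differed from the rest of the cluster in Car-1.
MIR92A2: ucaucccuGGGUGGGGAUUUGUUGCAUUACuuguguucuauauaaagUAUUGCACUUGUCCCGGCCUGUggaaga
MIR363: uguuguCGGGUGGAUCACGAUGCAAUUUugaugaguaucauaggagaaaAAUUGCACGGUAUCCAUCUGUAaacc

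All 7 cluster miRNAs had their highest line mean in Hutu80 vesicles and their second highest in Car-1. In the other 4 lines (MDST8, HT55, SW1116 and RCM-1) each had at most 33 counts in any library, except miR-363-3p and miR-20b-5p in MDST8. Together the 7 took 1.28% and 1.78% of the counts in the Hutu80 libraries and 0.931% in Car-1 replicate 1. They took 0.274% in Car-1 replicate 2. In the 8 libraries of the other 4 lines their share ran from 0.00502% to 0.0647%.

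miR-363-3p, the cluster's miRNA with the miR-92 seed, was the most abundant of the 7. It had 5375 and 6997 scaled CPM in the Hutu80 libraries, 2677 in Car-1 replicate 1 and 379 in Car-1 replicate 2, against 430 and 160 in MDST8, 51.9 and 116 in HT55, 73.4 and 28.1 in SW1116 and 84.7 and 29.5 in RCM-1. Both Hutu80 libraries and Car-1 replicate 1 were above all other libraries, while Car-1 replicate 2 lay between the 2 MDST8 libraries. The line means were 6186 ± 1147 for Hutu80, 1528 ± 1625 for Car-1 and 295 ± 191 for MDST8 (SD, n = 2 each), and the MDST8 range lay above that of HT55. HT55, RCM-1 and SW1116 overlapped in that order. Pooled over libraries, the level in Hutu80 was 49.6 times that in the 4 lines (95% counting interval 43.6 to 56.6). Such intervals cover counting error only.

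miR-20b-5p, which has the miR-17 seed, showed nearly the same profile at a lower level. It had 2704 and 4177 scaled CPM in Hutu80, 1839 in Car-1 replicate 1 and 259 in Car-1 replicate 2, against 174 and 119 in MDST8, 51.9 and 64.9 in HT55, 44.5 and 12.5 in SW1116 and 65.1 and 35.4 in RCM-1. Hutu80, Car-1, MDST8 and HT55 followed each other without overlap, and HT55, RCM-1 and SW1116 overlapped as neighbours. The pooled level in Hutu80 was 49.6 times that in the 4 lines (41.7 to 59.2).

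miR-20b-3p comes from the other arm of the same hairpin. It had 545 and 1214 scaled CPM in Hutu80, 474 in Car-1 replicate 1 and 105 in Car-1 replicate 2. In MDST8 it had 44.3 and 15.7, in HT55 8.65 and 18.5, in SW1116 15.6 and 6.25 and in RCM-1 26.1 and 2.95. Hutu80 stood above Car-1 and Car-1 above MDST8 without overlap, and below MDST8 all neighbouring lines overlapped. The pooled ratio of Hutu80 to the 4 lines was 54.2 (38.1 to 78.8).

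miR-106a-5p, the first hairpin of the cluster and the near copy of miR-17-5p, had the lowest pooled ratio of the 7. It had 414 and 670 scaled CPM in Hutu80, 332 in Car-1 replicate 1 and 44.8 in Car-1 replicate 2, against 28.5 and 47.0 in MDST8, 26.0 and 27.8 in HT55 and 17.8 and 31.2 in SW1116. In RCM-1 it had 2 and 14 counts, the second worth 41.3. Car-1 replicate 2 lay below 1 MDST8 library, so Car-1 and MDST8 overlapped, as did every neighbouring pair below them. The pooled ratio of Hutu80 to the 4 lines was 18.6 (13.7 to 25.5). The 8 libraries of the 4 lines held 2 to 15 counts each.

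miR-92a-2-5p had 774 and 1666 scaled CPM in Hutu80 and 1049 and 992 in Car-1 replicates 1 and 2. In MDST8 it had 9.49 and 18.8, in HT55 26.0 and 27.8, in SW1116 9 and 0 counts, and in RCM-1 52.1 and 26.5. Unlike the miRNAs above, both Car-1 libraries lay inside the Hutu80 range, and all 4 of these libraries were far above the other 8. RCM-1, not MDST8, came next after Car-1. The pooled ratio of Hutu80 to the 4 lines was 64.8 (47.0 to 91.2).

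miR-363-5p, the minor strand opposite miR-363-3p, was scarce but followed miR-92a-2-5p. It had 54.5 and 184 scaled CPM in Hutu80 (5 and 22 counts) and 117 and 94.7 in Car-1 (29 and 19 counts). The 8 libraries of the other 4 lines held 2 counts in all, 1 in MDST8 replicate 1 and 1 in SW1116 replicate 1. Hutu80 and Car-1 overlapped, and both were above all 8 other libraries. The pooled ratio of Hutu80 to the 4 lines was 142 with a counting interval of 35.8 to 1237, and in the 6 libraries at 0 a floor of 3 counts allows a level of 8.84 to 26.0.

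miR-18b-5p was the least abundant of the 7. It had 164 and 75.3 scaled CPM in Hutu80 (15 and 9 counts), 24.3 in Car-1 replicate 1 and 9.97 in Car-1 replicate 2 (6 and 2 counts). MDST8 had 2 and 0 counts, HT55 0 and 1, SW1116 1 and 0 and RCM-1 0 and 1. Hutu80 and Car-1 did not overlap with each other, nor Car-1 with MDST8, but these levels rest on few counts. The pooled ratio of Hutu80 to the 4 lines was 50.7 (18.9 to 170).

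**Figure D1:**
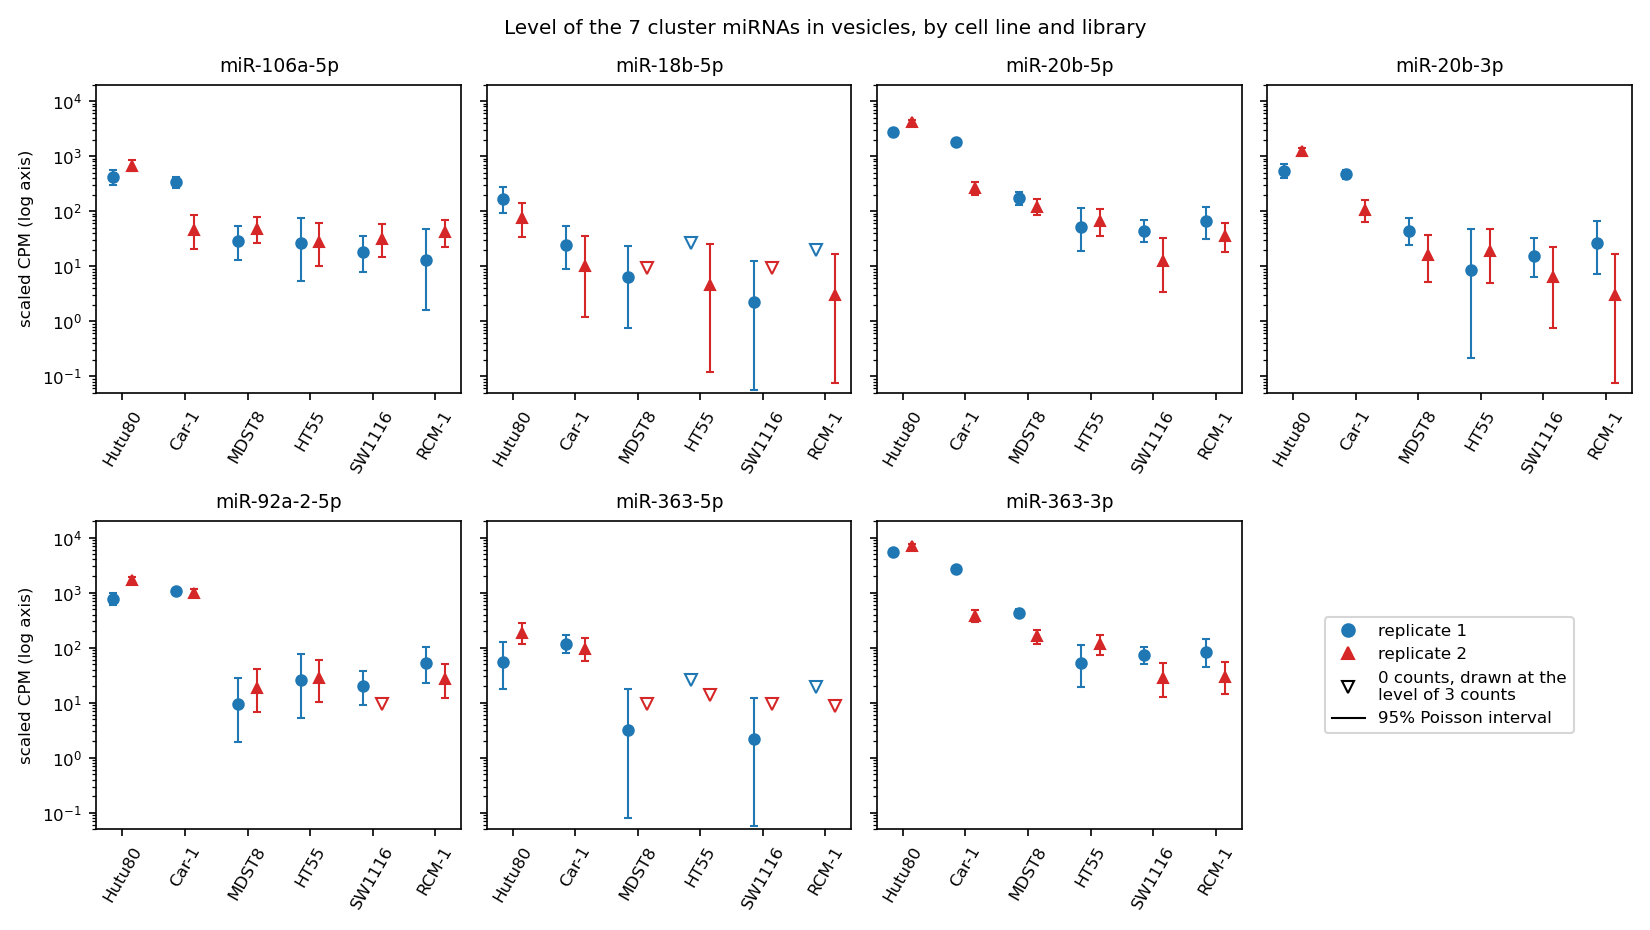
Scaled CPM (log axis) of the 7 cluster miRNAs in each of 12 vesicle libraries, by line; circles are replicate 1, filled triangles replicate 2, bars 95% Poisson intervals of the count, and open triangles libraries at 0 drawn at the level of 3 counts. Hutu80 has the highest line mean in every panel, and Car-1 replicate 2 lies near Car-1 replicate 1 only for miR-92a-2-5p, miR-363-5p and, within wide intervals, miR-18b-5p.

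Other products of these hairpins were rare. miR-106a-3p had 1 count, in Hutu80 replicate 2. miR-18b-3p had 0 and 11 counts in Hutu80, 4 and 0 in Car-1, 0 and 4 in MDST8 and 0 to 2 per library elsewhere. miR-19b-2-5p had no row under that name in the count table.

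Across the 6 line means of log2 scaled CPM, Pearson correlations between the 7 cluster miRNAs ran from 0.857 to 0.995 over 21 pairs, with a median of 0.949. These are descriptions over 6 points that share libraries and depth, and the members were chosen for this pattern. miR-18b-5p and miR-363-5p held 5 and 2 counts over the 8 libraries of MDST8, HT55, SW1116 and RCM-1. There the prior count of 2 added before taking logs largely sets their levels, so high correlations for these miRNAs were largely fixed in advance. Of 35 pairs of lines that were neighbours in the order of a cluster miRNA, 13 had libraries that did not overlap and 22 overlapped. No such count over all tested miRNAs is given here, so whether 13 is many or few cannot be said.

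The 2 Car-1 libraries held nearly equal amounts of 2 cluster miRNAs and very unequal amounts of 4 others. The ratio of replicate 1 to replicate 2 was 7.07 for miR-363-3p (95% counting interval 5.57 to 9.09), 7.10 for miR-20b-5p (5.32 to 9.65), 7.41 for miR-106a-5p (3.72 to 16.8) and 4.53 for miR-20b-3p (2.83 to 7.59). It was 1.06 for miR-92a-2-5p (0.876 to 1.28) and 1.24 for miR-363-5p (0.672 to 2.34). For miR-18b-5p it was 2.44, with an interval of 0.436 to 24.7 that covers both. The counting intervals of the first 4 ratios do not reach those of miR-92a-2-5p or miR-363-5p.

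Differences of this size were rare between these libraries. Over the 311 tested miRNAs outside the cluster, the median log2 difference (replicate 1 minus replicate 2, prior count 2) was 0.07, the 5th and 95th percentiles were −1.23 and 1.30, and 8 lay beyond 2 in either direction. Of all 318 tested, 1 exceeded replicate 2 in replicate 1 by more than miR-363-3p did, 2 by more than miR-20b-5p, 3 by more than miR-106a-5p and 6 by more than miR-20b-3p. In the same direction 120 differed by more than miR-363-5p and 159 by more than miR-92a-2-5p. In the other 5 lines no cluster miRNA differed between its 2 libraries by more than 1.77 on the same scale. Most counts in MDST8, HT55, SW1116 and RCM-1 were low, and there the prior count limits how large such a difference can be.

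The composition of the cluster shifted accordingly. miR-92a-2-5p made up 52.6% of the cluster's counts in Car-1 replicate 2, against 7.72% to 16.1% in the Hutu80 libraries and Car-1 replicate 1. miR-363-3p made up 20.1% in Car-1 replicate 2 and 41.1% in Car-1 replicate 1.

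The other miRNAs that stood highest in Hutu80 over the 4 lines differed less between the Car-1 libraries than miR-363-3p, miR-20b-5p, miR-106a-5p and miR-20b-3p did. After the values were seen, 13 tested miRNAs outside the cluster were picked whose log2 level in Hutu80 was at least 4 above the other 4 lines. Their difference between Car-1 replicates 1 and 2 had a median of 0.30 and ran from −0.995 to 1.06, and 0 of 13 passed 2. Of the 13, 9 were higher in replicate 1, 1 of them by more than 1. Over the 311 tested miRNAs outside the cluster, this difference and the Hutu80 excess over the 4 lines had a Pearson correlation of 0.19. Outside these 13, miR-2277-5p was also high in Hutu80, at 32.7 and 209 scaled CPM, and had 56.7 in Car-1 replicate 1 and 0 in Car-1 replicate 2. Among these 13, 10 had both Car-1 libraries below both Hutu80 libraries, 2 overlapped Hutu80 and 1 had both above. In 9 both Car-1 libraries were above all 8 libraries of the other 4 lines. The pick for high Hutu80 levels favours Car-1 lying below Hutu80. No such counts over all tested miRNAs are given here, so whether these are many or few cannot be said. miR-345-3p, the one with both Car-1 libraries above Hutu80, had 543 and 389 scaled CPM in Car-1 replicates 1 and 2 and 218 and 318 in Hutu80. miR-365a-5p had 964 and 872 in Car-1 and 1657 and 1841 in Hutu80. miR-1262 had 28.3 and 64.8 scaled CPM in Car-1 replicates 1 and 2, against 1254 and 2126 in Hutu80. miR-137-3p, a neuronal miRNA, had 16.2 and 9.97 in Car-1 and 469 and 318 in Hutu80. The 13 covered Car-1 levels from low to above those of Hutu80, and their 2 Car-1 libraries differed by at most 1.06 on the log2 scale. The cause of the difference between the Car-1 libraries was not tested.

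**Figure D2:**
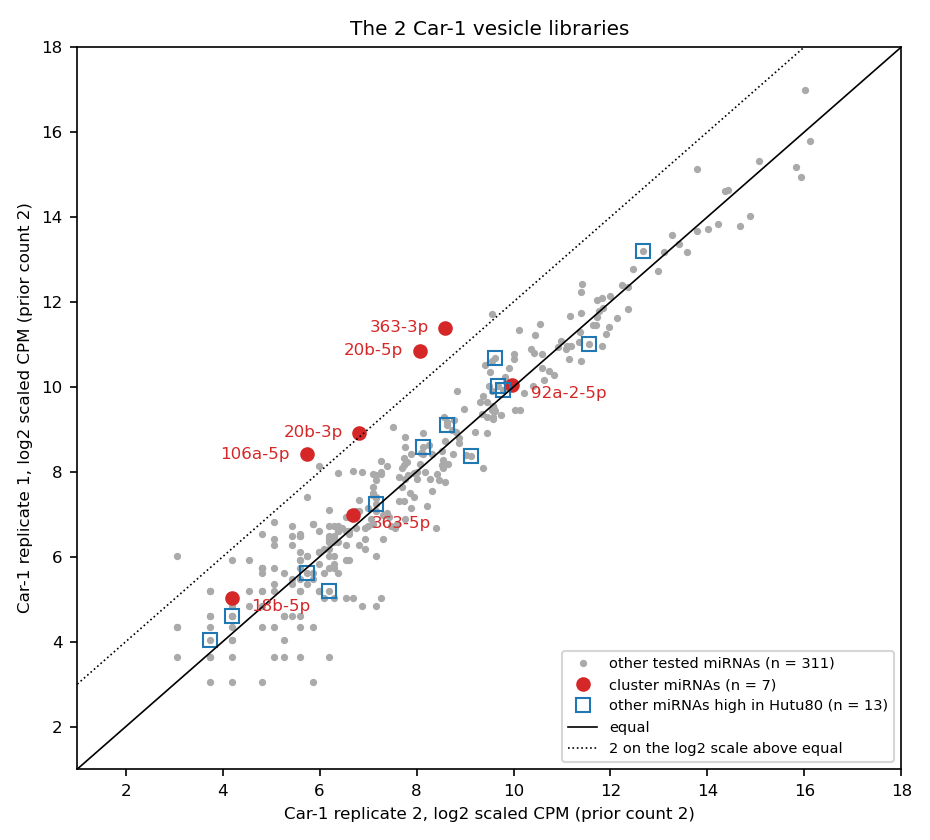
Log2 scaled CPM (prior count 2) of 318 tested miRNAs in Car-1 replicate 1 (vertical axis) and replicate 2 (horizontal axis); red points are the 7 cluster miRNAs, blue squares 13 other miRNAs high in Hutu80, grey points the rest, the solid line equality and the dotted line a difference of 2. miR-363-3p, miR-20b-5p, miR-106a-5p and miR-20b-3p lie above the dotted line, and miR-92a-2-5p and miR-363-5p lie near equality.

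The arms of the 2 hairpins with both strands among the 7 can be set against each other within a library. For miR-20b the 5p strand made up 83.2% and 77.5% of both strands in Hutu80, 79.5% in Car-1 replicate 1 and 71.2% in Car-1 replicate 2 (exact binomial 95% interval 59.4% to 81.2%). The interval for Car-1 replicate 1 was 76.0% to 82.7%, so those of the 2 Car-1 libraries overlap. For miR-363 the 3p strand made up 99.0% and 97.4% in Hutu80, 95.8% in Car-1 replicate 1 (94.0% to 97.2%) and 80.0% in Car-1 replicate 2 (70.5% to 87.5%). The intervals of the 2 Car-1 libraries do not overlap. In MDST8 the 3p share was 99.3% and 100%, from 137 and 51 counts.

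The cluster supplied a sizeable part of the miR-17 seed family in Hutu80 vesicles and in Car-1 replicate 1, and a small part in the other 9 libraries. miR-106a-5p and miR-20b-5p together made up 29.5% and 37.6% of the counts with the seed AAAGUGC in the Hutu80 libraries, 24.2% in Car-1 replicate 1 and 5.28% in Car-1 replicate 2. In MDST8 the share was 2.75% and 2.32%, and in the 6 libraries of HT55, SW1116 and RCM-1 it ran from 0.799% to 1.41%. Car-1 replicate 2 thus lay above MDST8 and well below Car-1 replicate 1.

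Within the pair of near copies, miR-20b-5p made up 68.1% and 77.4% of miR-20b-5p plus miR-20a-5p in Hutu80, 62.4% in Car-1 replicate 1 and 22.2% in Car-1 replicate 2. It made up 15.5% and 13.8% in MDST8 and 1.41% to 5.24% in the other 6 libraries. miR-106a-5p made up 31.4% and 40.4% of miR-106a-5p plus miR-17-5p in Hutu80, 27.5% in Car-1 replicate 1 and 6.38% in Car-1 replicate 2, and 1.54% to 8.57% in the 8 libraries of the other 4 lines. So the X-linked copy was the larger of the pair for miR-20 in 3 libraries, and the smaller for miR-106a in all 12.

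miR-18b-5p made up 51.7% and 42.9% of miR-18b-5p plus miR-18a-5p in Hutu80, from 29 and 21 counts. It had 6 of 30 such counts in Car-1 replicate 1 and 2 of 16 in Car-1 replicate 2, and its share was at most 12.5% in the other 8 libraries. miR-363-3p, although the most abundant cluster miRNA, was a small part of its own family, in which miR-92a-3p had 5395 and 8507 counts in the Hutu80 libraries. It made up 6.99% and 7.65% of the counts with the seed AUUGCAC in Hutu80, 4.61% in Car-1 replicate 1, 0.786% in Car-1 replicate 2, 1.15% and 0.446% in MDST8 and 0.0184% to 0.126% in the other 6 libraries.

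**Figure D3:**
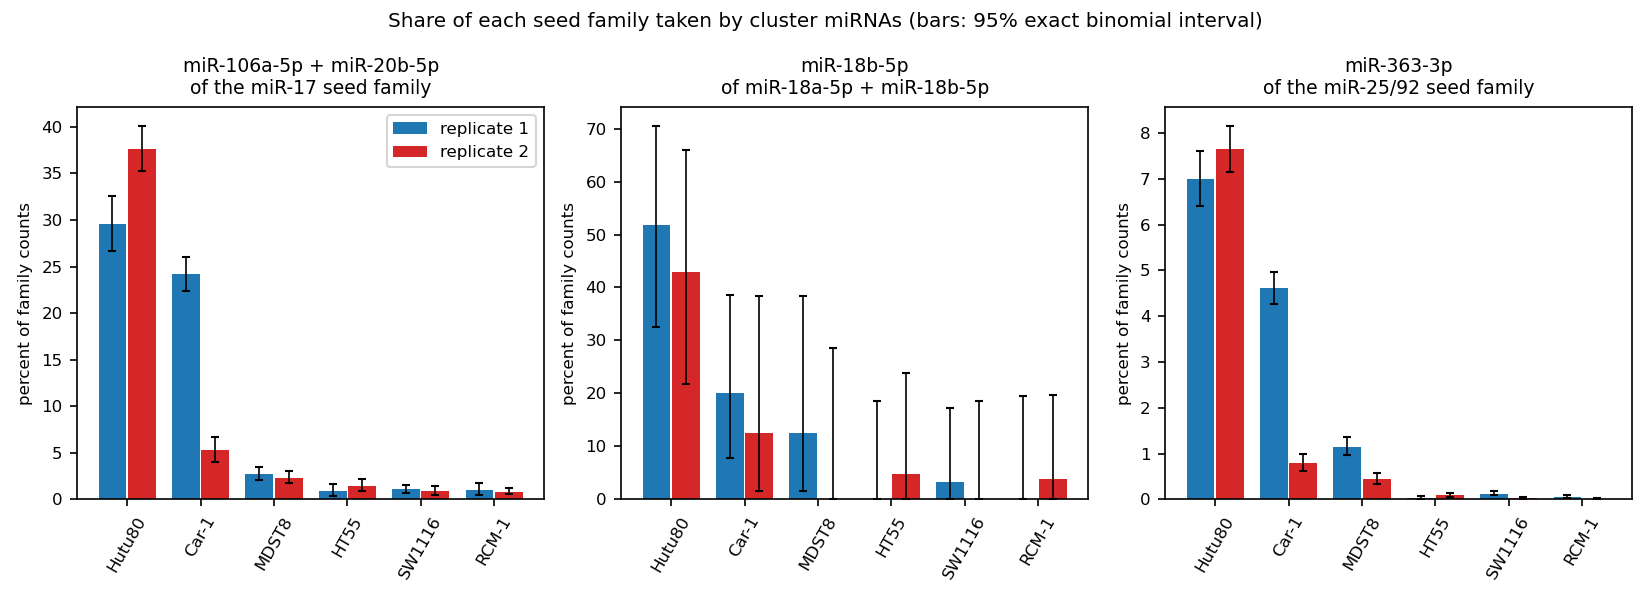
Percent of the counts of a seed family taken by cluster miRNAs in each library, by line, with bars for replicate 1 (blue) and replicate 2 (red) and 95% exact binomial intervals; each panel has its own axis from 0. The share of the miR-17 family is 29.5% and 37.6% in Hutu80 and 24.2% and 5.28% in Car-1, and that of the miR-25/92 family does not pass 7.65% in any library.

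The relatives of the cluster were tested to ask whether they followed the same lines. The choice of members did not use them, but their lists too were drawn up with earlier results of these data known. They include miR-92a-3p and miR-19b-3p, which hairpins of the cluster can also give. Of 34 relatives listed (miR-17-92, miR-106b-25, other miRNAs with the same seeds, and the Xq26 neighbours), 30 were in the table and 17 were tested. In edgeR's quasi-likelihood test across the 6 lines, with Benjamini-Hochberg adjustment over all 318 miRNAs and a threshold of 0.05, 5 of the 17 differed between lines, against 68.2% of all tested miRNAs. They were miR-92a-1-5p (adjusted p = 6.97e-12), miR-92a-3p (adjusted p = 3.21e-08), miR-92b-3p (adjusted p = 0.000411), miR-25-5p (adjusted p = 0.00215) and miR-25-3p (adjusted p = 0.00355). All 5 come from hairpins of the miR-25/92 type. With library totals or limma-trend 11 of the 17 differed, where 248 and 236 of all 318 tested miRNAs did.

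In Hutu80 against the mean of the other 5 lines, 2 relatives were higher and 1 was lower, where 23.0% of all tested miRNAs were called higher and 16.7% lower. With library totals 5 were higher and 0 lower, and with limma-trend 6 and 0. The shares of all tested miRNAs in these alternatives are not given here. Library totals moved the Hutu80 differences of all tested miRNAs by a median of 0.35. By edgeR with TMM scaling, the chromosome 13 copies miR-17-5p, miR-18a-5p and miR-20a-5p were not called in Hutu80. Nor were miR-19b-3p and miR-92a-3p, which either chromosome can give. miR-17-5p was at 946 ± 58.5 scaled CPM in Hutu80 and 697 over the other lines (log2 difference 0.47 ± 0.26 SE, edgeR adjusted p = 0.166). miR-20a-5p was at 1243 in Hutu80 and 1154 over the other lines (0.15 ± 0.25, edgeR adjusted p = 0.704). miR-18a-5p differed by 0.76 ± 0.50 (edgeR adjusted p = 0.254), miR-19b-3p by 0.60 ± 0.29 (edgeR adjusted p = 0.102) and miR-92a-3p by 0.25 ± 0.21 (edgeR adjusted p = 0.389). None of these 5 passed the threshold, which does not show that their levels were equal.

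Against that, miR-92a-1-5p, the 5p strand of the chromosome 13 hairpin that also gives miR-92a-3p, was at 7104 scaled CPM in Hutu80 and 809 over the other 5 lines (log2 difference 3.98 ± 0.24 SE, edgeR adjusted p = 1.3e-12). miR-25-5p was at 326 in Hutu80 and 130 over the other lines (1.51 ± 0.39, edgeR adjusted p = 0.00331), and miR-25-3p at 10557 and 17412 (−0.68 ± 0.22, edgeR adjusted p = 0.0162). The miR-25-5p call was lost in 3 of 18 alternatives, among them without Hutu80 replicate 1 or replicate 2 (adjusted p 0.000197 to 0.295 over all 18). The miR-25-3p call was lost in 2 of 18, when scaled by totals alone and with limma-trend (5.59e-06 to 0.236).

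In Car-1 against the mean of the other 5 lines, 1 relative was higher and 3 were lower, where 21.1% of all tested miRNAs were called higher and 13.5% lower. With library totals 4 were higher and 0 lower, and with limma-trend 3 and 0. Shares of all tested miRNAs in these 2 settings are not given here, so the percentages above are no background for them. Library totals moved the Car-1 differences of all tested miRNAs by a median of 0.63. miR-92a-1-5p was again the one that was higher, at 2049 and 3019 scaled CPM in Car-1 replicates 1 and 2, a log2 difference of 2.19 ± 0.26 SE (edgeR adjusted p = 3.65e-07). Its call held in all 18 alternatives, in Hutu80 as in Car-1. miR-92a-3p (−0.72 ± 0.23, edgeR adjusted p = 0.0153), miR-106b-3p (−0.76 ± 0.25, adjusted p = 0.0209) and miR-25-3p (−0.61 ± 0.22, adjusted p = 0.0303) were lower. All 3 calls were lost without either Car-1 library and when libraries were scaled by their totals alone, where the miR-25-3p difference turned to 0.0201.

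In the 4 lines with low cluster levels the relatives were called in both directions. In MDST8, 0 relatives were higher and 5 were lower (22.0% and 22.3% of all tested), among them miR-92a-1-5p (−3.49 ± 0.40, edgeR adjusted p = 7.28e-08) and miR-92a-3p (−2.12 ± 0.25, adjusted p = 1.73e-07). In RCM-1, 5 were higher and 0 lower (21.1% and 14.8%), among them miR-92a-3p (1.43 ± 0.19, edgeR adjusted p = 2.79e-06), but 2 were higher with library totals or limma-trend. In SW1116, 0 were higher and 3 lower (17.6% and 16.7%), but 12 were lower with library totals or limma-trend and 1 with no filter. Library totals moved the SW1116 differences of all tested miRNAs by a median of −0.66. The percentages in this paragraph belong to the edgeR fit with TMM scaling, and those of the alternatives are not given here. In HT55, 1 was higher and 0 lower (13.8% and 10.4%). The 4 counts of 0 were also 0 at an unadjusted edgeR p under 0.05, in DESeq2 and in limma-trend.

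The median log2 difference of the 17 relatives was 0.25 in Hutu80, where that of all tested miRNAs was 0.09, and −0.01 in Car-1, where it was 0.02. In MDST8 the relatives' median was −0.52 and that of all tested −0.32. In HT55 they were 0.21 and −0.08, in SW1116 −0.50 and −0.22 and in RCM-1 0.51 and −0.12.

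**Figure D4:**
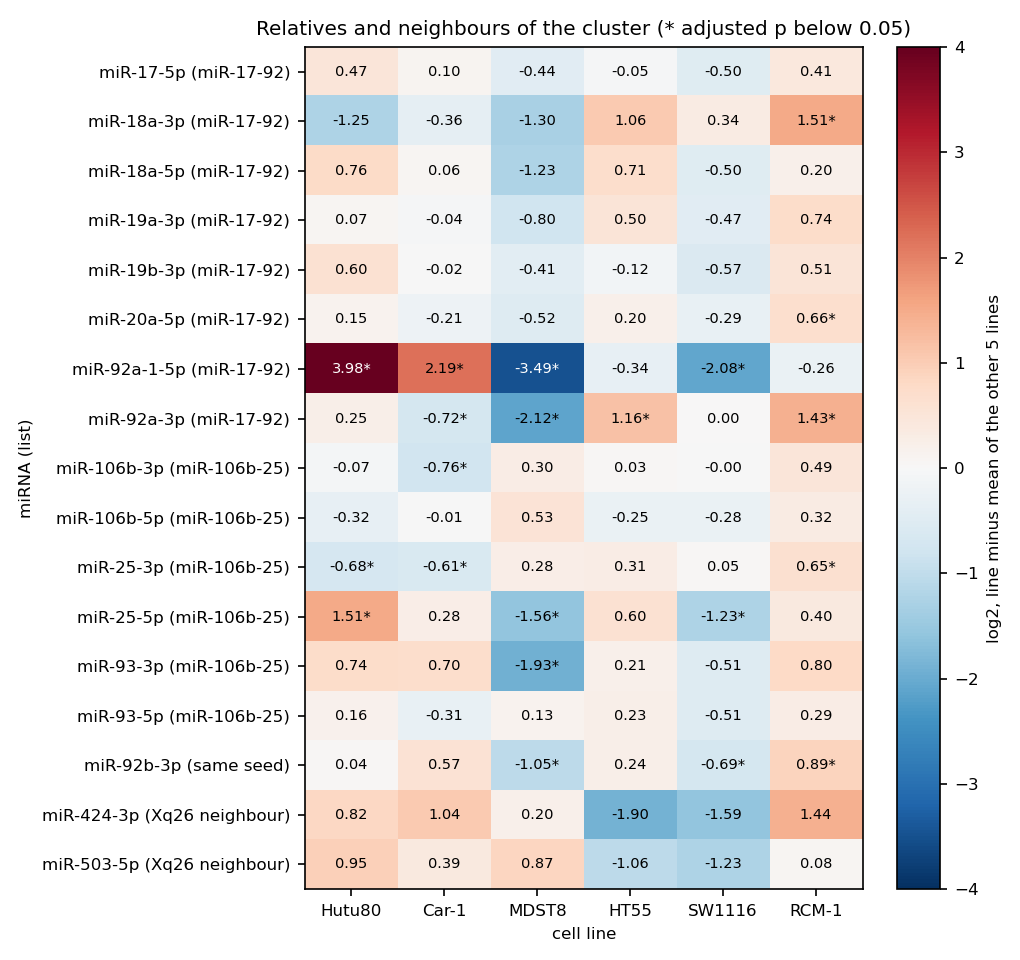
Log2 difference of each line from the mean of the other 5 lines for the 17 tested relatives and neighbours (rows), by line (columns), with a star where the edgeR adjusted p is below 0.05. In the Hutu80 column miR-92a-1-5p stands at 3.98, while miR-17-5p, miR-18a-5p, miR-20a-5p and miR-92a-3p lie between 0.15 and 0.76 without a star.

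The counterpart of miR-92a-2-5p on chromosome 13 is miR-92a-1-5p, and miR-92b-5p and miR-25-5p are the 5p strands of other hairpins whose 3p strand has the same seed. They are printed because 5p strands of this kind share no seed with each other. miR-92b-5p was added after its values were seen.
miR-92a-1-5p: aGGUUGGGaucgguugcaaugcu
miR-92b-5p: aGGGACGGgacgcggugcagug
miR-25-5p: aGGCGGAGacuugggcaauug

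The guanine content of these strands was 9 of 22 bases in miR-92a-2-5p, 9 of 23 in miR-92a-1-5p, 12 of 22 in miR-92b-5p, 9 of 21 in miR-25-5p and 7 of 22 in miR-363-5p. It was 7 of 23 in miR-106a-5p, miR-20b-5p and miR-18b-5p, 6 of 22 in miR-20b-3p and 4 of 22 in miR-363-3p, so miR-363-5p was close to the first 3 of these. miR-92a-1-5p had 4307 and 9902 scaled CPM in Hutu80, 2049 and 3019 in Car-1, against 133 and 56.3 in MDST8, 587 ± 63.4 in HT55 (SD, n = 2), 174 and 256 in SW1116 and 651 and 578 in RCM-1. The 4 libraries of Hutu80 and Car-1 were above the other 8, as for miR-92a-2-5p. miR-92b-5p had 360 and 419 in Hutu80 and 324 and 548 in Car-1, against 2.95 to 34.4 in the other 8 libraries.

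Since miR-92b-5p was picked for its values, no test of it is given. Its 3p partner miR-92b-3p differed from the mean of the other 5 lines by 0.04 ± 0.24 in Hutu80 (edgeR adjusted p = 0.921) and 0.57 ± 0.23 in Car-1 (edgeR adjusted p = 0.0531). miR-25-5p had 251 and 402 scaled CPM in Hutu80 and 190 and 130 in Car-1, overlapping HT55 at 277 and 120. In Car-1, miR-92a-1-5p and miR-92b-5p were both lower in replicate 1 than in replicate 2, by 0.56 and 0.74 on the log2 scale. The cluster strands of the same type, miR-92a-2-5p and miR-363-5p, were 0.08 and 0.29 higher in replicate 1. The part of base composition in these values was not tested.

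**Figure D5:**
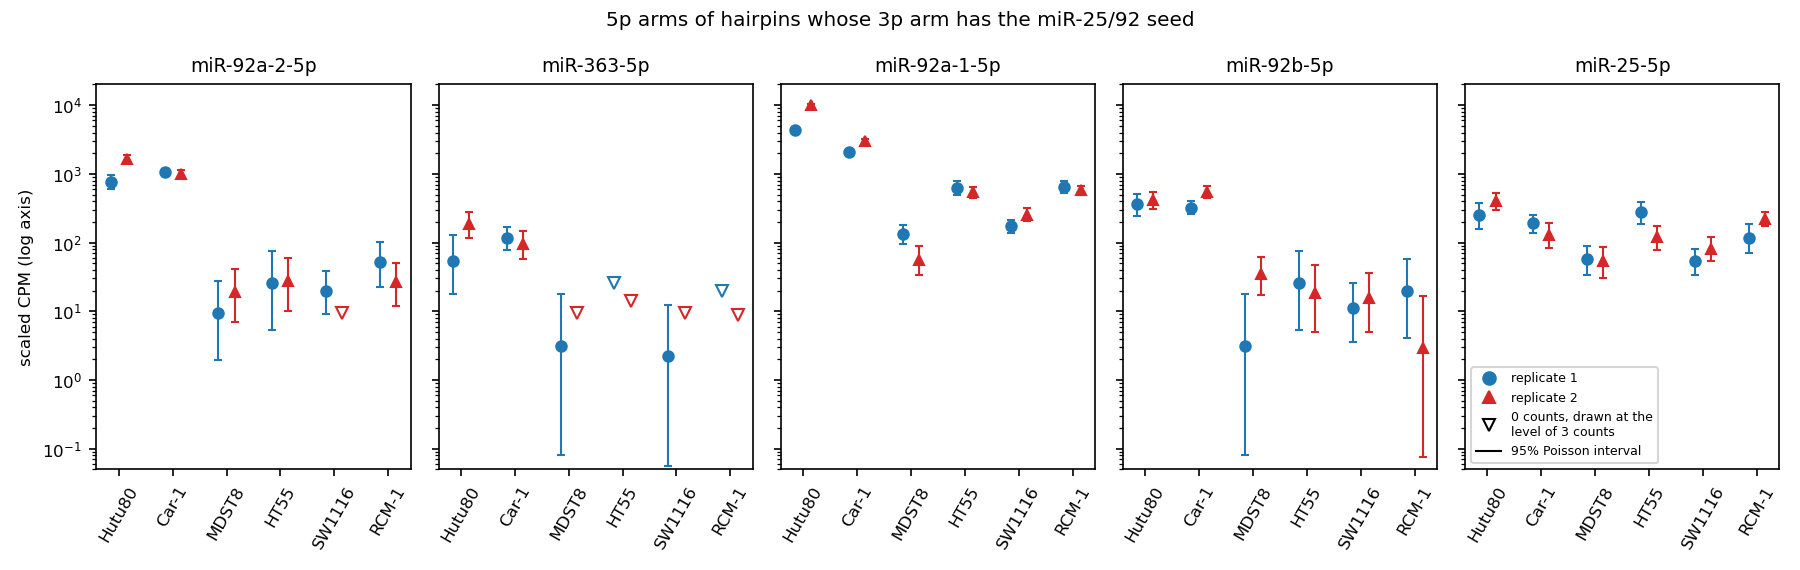
Scaled CPM (log axis) of the 5p strands from 5 hairpins whose 3p strand has the seed AUUGCAC, by line and library; circles are replicate 1, filled triangles replicate 2, bars 95% Poisson intervals and open triangles libraries at 0 drawn at 3 counts. In all panels except miR-25-5p, both Car-1 libraries lie with Hutu80 above the other 8 libraries.

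The Xq26 neighbours miR-424, miR-503, miR-542 and miR-450 lie on the same strand of chromosome X, outside the cluster's host transcript. Of 11 listed, 10 were in the table and 2 were tested, miR-424-3p and miR-503-5p. Of these 2, 0 differed between lines (0 at an unadjusted edgeR p under 0.05, 0 in DESeq2 and 0 in limma-trend), where 68.2% of all tested miRNAs did. With 2 tested, this does not show that the neighbours were level across lines. Among those not tested, miR-503-3p had 0 and 4 counts in Hutu80, 7 and 7 in Car-1 and 0 in every other library. By contrast, miR-424-5p was highest in MDST8, at 24 and 15 counts. In Hutu80 miR-503-5p differed by 0.95 ± 0.72 (edgeR adjusted p = 0.332) and miR-424-3p by 0.82 ± 0.92 (edgeR adjusted p = 0.550). The summed level of the 10 was 251 and 126 scaled CPM in Hutu80, 202 and 174 in Car-1 and 212 and 185 in MDST8, against 51.9 to 169 in the other 6 libraries. Hutu80, Car-1 and MDST8 overlapped in this sum.

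Since the medium held serum, 7 miRNAs abundant in blood (miR-451a, miR-144-3p, miR-144-5p, miR-486-5p, miR-122-5p, miR-16-5p and miR-223-3p) were summed beside the cluster. The sum was 4982 and 3926 scaled CPM in Hutu80, 4677 and 5092 in Car-1 and 3582 and 2692 in MDST8, against 2430 to 6482 in the other 6 libraries. It was slightly higher in Car-1 replicate 2 than in replicate 1. The 2 highest libraries were those of HT55, where miR-486-5p alone had 4734 and 4092 scaled CPM, and the lowest was SW1116 replicate 2. Of the 6 tested, 1 differed between lines (68.2% of all tested did), miR-486-5p (edgeR adjusted p = 5.14e-05). It was higher in HT55 (1.20 ± 0.22, edgeR adjusted p = 0.000112) and was not called in Hutu80 or Car-1. It was lower in MDST8 (−0.89 ± 0.25, edgeR adjusted p = 0.00553) and SW1116 (−0.71 ± 0.25, edgeR adjusted p = 0.0313). The part of serum in the cluster's levels was not tested. With limma-trend on the deposited log2 values, 4 of the 6 differed between lines, where 236 of all 318 tested miRNAs did. In that setting 2 of the 6 were higher in Hutu80 and 3 were higher in Car-1, and the shares of all tested are not given here. The deposited values are scaled by library totals. In edgeR that scaling moved the differences of all tested miRNAs by a median of 0.35 in Hutu80 and 0.63 in Car-1.

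Among tested miRNAs outside the cluster, those with line means most like the 2 most abundant members were taken by Pearson's correlation over 6 line means of log2 scaled CPM. For miR-363-3p they were miR-30c-2-3p (0.983), miR-30a-3p (0.979), miR-2277-5p (0.963), miR-30d-3p (0.953) and miR-1306-3p (0.952). For miR-20b-5p they were miR-30c-2-3p (0.976), miR-2277-5p (0.967), miR-1303 (0.964), miR-1306-3p (0.956) and miR-30a-3p (0.954). These values describe 6 points and pick the highest of many. miR-30c-2-3p had 1640 and 782 scaled CPM in Car-1 replicates 1 and 2, and miR-1303 had 377 and 274, gaps narrower than that of miR-363-3p. miR-2277-5p had 56.7 and 0 (14 and 0 counts), a log2 difference of 2.97 that depends on the prior count and was the one wider than that of miR-363-3p. In Hutu80 miR-2277-5p had 3 and 25 counts, and the 8 libraries of the other 4 lines held 0 to 4 each.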

How the data were processed

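Small RNA from vesicles of 6 lines was isolated by ultrafiltration and size-exclusion chromatography and made into libraries with IsoSeek, a low-input protocol with unique molecular identifiers, per the labels' protocols. The authors deposited whole-number counts of 1636 mature miRNAs and a log2 table, whose 19632 cells all match log2(CPM + 1) computed from the counts (tolerance 1e-10). The submitters' processing notes name the build hg38. The aligner, the annotation, the counter and any collapsing of identifiers were not given in the sources used here.

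The cluster miRNAs and all lists were chosen with earlier results of these data known. The named miRNAs are the members, the other products of their hairpins, all tested relatives and blood miRNAs, and the 5 most alike to each of the 2 most abundant members; any other is said to be chosen after its values were seen. filterByExpr (edgeR 4.0.16, R 4.3.3, minimum count 10) kept 318 miRNAs with 99.7% of 3141138 counts. TMM factors ran from 0.642 to 1.46. All 12 libraries entered 1 quasi-likelihood fit with 1 mean per line, and each line was tested against the mean of the other 5, with Benjamini-Hochberg adjustment over all 318 and a threshold of 0.05. Levels over other lines are arithmetic means, and need not match the fitted difference. Intervals are exact Poisson or binomial at 95%. Alternatives were RLE factors, library totals, no filter, DESeq2 1.42.0, limma-trend (limma 3.58.1) on the deposited log2 values, a replicate block and leaving out each library. Tested on data simulated for Hutu80 against the other lines (318 miRNAs), the procedure called 6 of 20 miRNAs changed 2-fold, 17 of 20 changed 4-fold, 19 of 20 changed 8-fold and 2 of 258 unchanged ones.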

Additional observations from a re-analysis of the deposited data

How the results depend on the processing

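Across lines, 217 of 318 miRNAs differed (206 to 222 when 1 library was left out, 223 with the replicate block), and 5 relatives did (5 to 7 when 1 library was left out). With library totals as the only scaling and with limma-trend 11 relatives passed in each case. Library totals also moved the median of all tested miRNAs, by 0.63 in Car-1, −0.66 in SW1116 and 0.35 in Hutu80. For the counts per line below, shares of all tested miRNAs in the alternatives are not given here. The relatives higher in Hutu80 numbered 2, but 5 with library totals, 6 with limma-trend and 1 with no filter (1 to 3 when 1 library was left out; 1 without either Hutu80 library). The relative lower in Hutu80 was lost with library totals and limma-trend (0 in each; 1 to 1 when 1 library was left out). In Car-1 the relatives higher numbered 1, but 2 with RLE factors, 4 with library totals, 3 with no filter, 3 with limma-trend and 2 with the replicate block (1 to 2 when 1 library was left out). Those lower in Car-1 numbered 3, and 0 with library totals, no filter or limma-trend (0 to 3 when 1 library was left out; 0 without either Car-1 library, 1 without Hutu80 replicate 1). In MDST8 0 were higher, and 1 with no filter (0 to 0 when 1 library was left out), and 5 were lower (3 to 6; 3 without MDST8 replicate 2). In SW1116 3 were lower, but 12 with library totals, 12 with limma-trend and 1 with no filter (1 to 3; 1 without Hutu80 replicate 1 or 2, Car-1 replicate 2, HT55 replicate 1 or SW1116 replicate 1). In RCM-1 5 were higher, but 2 with library totals, 3 with no filter, 3 with DESeq2 and 2 with limma-trend (3 to 6; 3 without Hutu80 replicate 2, HT55 replicate 2 or RCM-1 replicate 1). In HT55 1 was higher (1 to 1). Direction turned for miR-25-3p in Car-1 (0.0201 with library totals, 0.0199 with limma-trend), and in SW1116, from near 0, for miR-92a-3p (−0.68 and −0.71) and miR-25-3p (−0.62 and −0.61). The cause was not tested. Replicate numbers were not used to pair the samples in the main fit. Of 15 pairs of lines, 5 had a correlation of same-numbered deviations above 0.1 (range −0.228 to 0.266). Such correlations cannot show that same-numbered libraries shared no step. With the replicate block 6 relatives differed across lines. Of 84 member levels under RLE factors and library totals, 79 moved by less than the SD between libraries and 5 by more, all with library totals. Depth limits miR-18b-5p and miR-363-5p, which rest on 37 and 77 counts over all 12 libraries.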
